A study of Homo sapiens with 6 samples.

Results

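Amino acid and peptide carriers are the membrane proteins that bring amino acids and short peptides into a cell, exchange them across the plasma membrane or release them from lysosomes. The genes described here are all those of the table whose symbol belongs to the solute carrier families SLC1, SLC3, SLC6, SLC7, SLC15, SLC36, SLC38 and SLC43. They number 33 of 13117 genes. Of these, 27 passed the filter on low values (1 FPKM or more in 3 or more libraries, where FPKM is the number of fragments divided by the transcript length in kilobases and by the mapped reads in M, for mega), and 6 did not (SLC7A2, SLC43A3, SLC7A7, SLC15A2, SLC6A20 and SLC38A11). The symbol pattern also takes in 2 genes that the heading does not describe: SLC7A6OS encodes a protein of RNA polymerase II nuclear import named for its place opposite SLC7A6, and SLC43A3 carries purine nucleobases. SLC7A6OS is left out of every sum below, which leaves 32 carriers.

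The libraries came from SNU449, a human cell line from a hepatocellular carcinoma. The cells carry pInducer20-FOXO1AAA, which makes FOXO1, a transcription factor, from a doxycycline-inducible promoter and with the AKT phosphorylation sites replaced. In the Dox group, 3 libraries were made from cells given 2 µM doxycycline hydrochloride for 48 h. In the Cont group, 3 libraries were made from the same cells, with the same construct, kept without doxycycline for 48 h. Both groups were labelled wild type for genotype, and the labels do not say whether the line is 1 clone or whether each library had a culture of its own. P-values therefore measure the spread between these libraries, which may be technical. Because doxycycline was given only to cells with the construct, effects of the drug and of the protein it induces cannot be told apart in any comparison. The question was which of the carrier transcripts differed after induction of FOXO1AAA.

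Carriers differ in what drives them. Sodium-coupled carriers such as those of SLC6 and SLC38 concentrate their substrates, and exchangers such as the SLC7 light chains trade an intracellular amino acid for an extracellular one. The light chains reach the surface bound to the heavy chain SLC3A2, also known as CD98. In liver tumours and other cancers, glutamine entry through SLC1A5 and SLC38 carriers, leucine entry through SLC7A5 and cystine entry through SLC7A11 are known for feeding growth, mTORC1 signalling and glutathione synthesis, and many of these genes are known targets of the amino acid response factor ATF4.

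Reads assigned to the listed genes, recovered from the steps of the deposited values, were 46.0, 32.7 and 30.5 M in Dox libraries 1 to 3 and 29.2, 43.3 and 34.0 M in Cont libraries 1 to 3. Replicate 3 of each group stood further from replicates 1 and 2 (chi-square per degree of freedom 21.1 and 24.1 in Dox, 28.1 and 28.97 in Cont) than those stood from each other (8.25 in Dox, 5.60 in Cont). Mitochondrially encoded genes took 7.93% to 8.93% of the reads in Dox libraries and 1.84% to 2.83% in Cont libraries, so the other genes share a smaller part of the reads in Dox. FOXO1 itself had FPKM values of 2.87, 3.50 and 2.01 in Dox libraries and 0.741, 0.776 and 0.889 in Cont libraries. Of 15 hepatocyte markers, 6 had a row analysed here and their summed FPKM was 25.2 to 31.0 in Dox libraries and 182 to 252.5 in Cont libraries. FGB held most of the Cont sum, averaging 8.57 in Dox and 170 in Cont. All 4 tested were lower in Dox (AFP, FGA, FGB and FGG), though FGA passed the filter only through the Cont libraries. ALB, encoding albumin, was not tested and averaged 1.19 in Dox (77 reads in all) and 0.321 in Cont (13 reads). The only immune cell marker of 6 with a row, CD14, lay at FPKM 2.25 to 2.38 in Dox and 1.73 to 2.35 in Cont. Of 6 tested mesenchymal markers, 4 were higher in Dox (FN1, TWIST1, ZEB1 and ZEB2) and 2 lower (VIM and CDH2), with a median log2 change of 0.49. The summed FPKM of all 7 was 768.2 to 795.6 in Dox libraries and 1090 to 1113 in Cont libraries. Of 3 tested epithelial markers, CLDN4 was higher in Dox, and KRT8 and KRT18 were lower. CLDN4 passed the filter only through the Dox libraries. Of 3 tested fibroblast markers, COL3A1 was higher, and COL1A1 and COL1A2 were lower. Beside these marker lists, 37.6% of all tested genes were higher and 42.8% lower. The part of such marker shifts in the results below was not tested.

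Of the 27 tested genes, 9 were higher and 12 lower in Dox at an adjusted p under 0.05, and 6 did not pass. That is 77.8% past the threshold, beside 80.4% of all 11526 tested genes. Among all tested genes 37.6% were higher and 42.8% lower. The median log2 change was -0.04 over the 27 genes and -0.19 over the 26 without SLC7A6OS, beside -0.06 over all tested genes. With a log2 change of at least 1 also required, 3 carriers were higher (SLC7A11, SLC36A1 and SLC38A6), beside 16.3% of all tested genes, and 8 were lower (SLC7A5, SLC6A6, SLC3A2, SLC1A5, SLC38A1, SLC7A1, SLC7A6 and SLC1A4), beside 16.6%. In bulk RNA, fewer cells with a transcript and less transcript per cell cannot be told apart. A log2 change is the Dox minus the Cont mean of log2(FPKM + 1), given with its standard error (SE), folds are ratios of mean FPKM, and means carry the SD of 3 libraries. The added 1 shrinks the change of low genes. SLC7A8, SLC38A3 and SLC43A2 were thus short of a change of 1 at folds of 3.62, 3.62 and 2.77, beside 2.58 for SLC36A1. SLC1A1 was also short of it, at a Cont over Dox fold of 2.08.

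**Figure D1:**
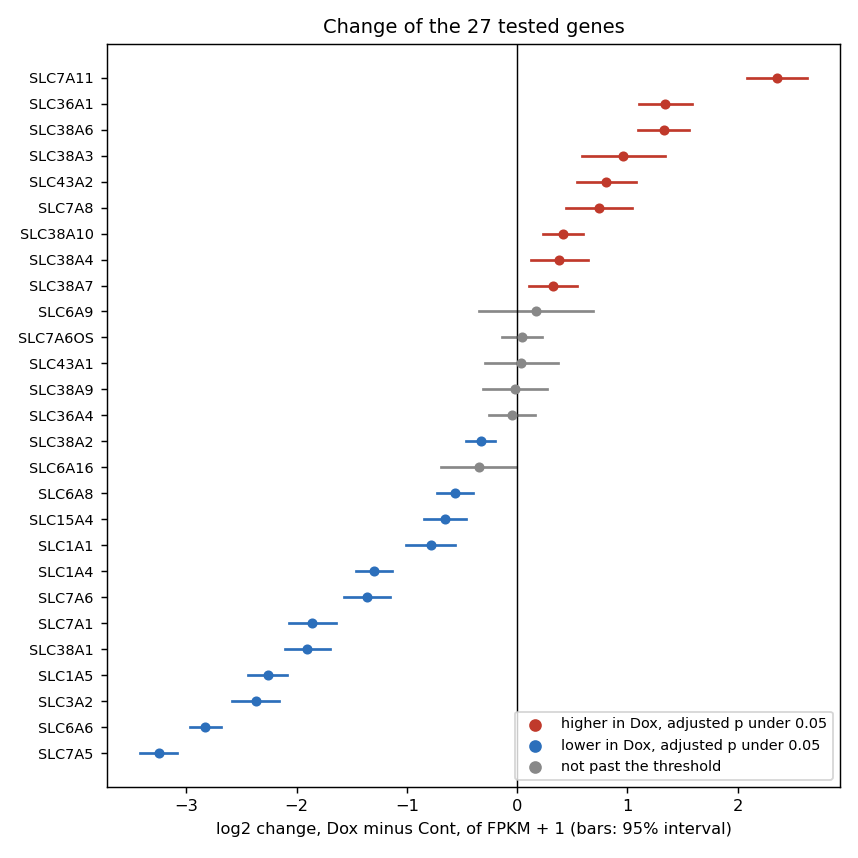
Log2 change (Dox minus Cont, of FPKM + 1, horizontal axis) of the 27 tested genes with 95% intervals, ordered by size; red marks genes higher in Dox, blue lower and grey not past the threshold. SLC7A11 stands alone at the top with 2.36 and SLC7A5 at the bottom with -3.25, and the intervals of 5 of the 6 grey genes include 0.

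The heavy chain and its main partner had the deepest falls among the exchangers. SLC3A2 (chromosome 11, 62856109 to 62888860, RefSeq GRCh38.p14) had FPKM values of 28.2, 24.4 and 26.7 in Dox libraries and 143.2, 156.6 and 124.3 in Cont libraries. All 3 Dox libraries were far below the lowest Cont library. The fold of Cont over Dox was 5.35, and the log2 change was -2.37 (SE 0.09, adjusted p = 1.31e-08). SLC7A5 (chromosome 16, 87830023 to 87869507), the light chain LAT1 that takes up leucine and other large neutral amino acids in exchange for glutamine, had FPKM values of 18.3, 19.3 and 20.9 in Dox libraries and 201, 201.1 and 181.1 in Cont libraries. Its groups were separate by a wide margin, with a Cont over Dox fold of 9.96 and a log2 change of -3.25 (SE 0.08, adjusted p = 1.09e-09), the largest fall of the 27 genes.

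The other light chains of SLC3A2 did not follow SLC7A5 alike. SLC7A6 (chromosome 16, 68264526 to 68301819), which exchanges cationic amino acids for neutral amino acids and sodium, had FPKM values of 3.81, 3.68 and 4.23 in Dox libraries and 12.3, 11.8 and 10.7 in Cont libraries, a log2 change of -1.36 (SE 0.09, adjusted p = 4.40e-07). The groups did not overlap, but SLC7A6 shares 3371 exon bases with SLC7A6OS on the opposite strand, and the use of strand in the counting was not given in the sources used here, so reads in that stretch cannot be told apart. SLC7A6OS did not pass the test, at 29.9 ± 2.45 FPKM in Dox and 28.9 ± 1.79 in Cont (log2 change 0.04).

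SLC7A11 (chromosome 4, 138164097 to 138242349), the light chain xCT that imports cystine and exports glutamate, went the other way. It had FPKM values of 11.2, 11.4 and 10.8 in Dox libraries and 1.17, 1.16 and 1.85 in Cont libraries. The 3 Dox libraries were nearly equal and every one lay above the highest Cont library, by a fold of 8.02 and a log2 change of 2.36 (SE 0.12, adjusted p = 6.77e-08), the largest rise of the 27 genes. Of its exon bases, 865 overlap the antisense transcript SLC7A11-AS1. SLC7A8, the light chain LAT2, had FPKM values of 1.15, 1.19 and 1.35 in Dox libraries and 0.190, 0.269 and 0.558 in Cont libraries, from 411 reads in the 3 Dox libraries and 103 in the 3 Cont libraries. It rose by 0.74 on the log2 scale (SE 0.13, adjusted p = 0.000547), a change that the added 1 FPKM understates, since the ratio of means was 3.62. SLC7A8 passed the filter only through the Dox libraries. SLC7A7, which exports cationic amino acids in exchange for neutral ones, was below the filter with 73, 44 and 22 reads in Dox libraries and 6, 9 and 14 in Cont libraries.

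Levels can be compared between genes only per length, and the lengths behind the deposited FPKM varied in kind. The length implied by each gene's FPKM and reads matched the first-listed GENCODE 29 transcript within 2% in 74.1% of genes and the longest transcript in 36.1%. SLC6A6, for example, was divided by 565 bases where its longest transcript has 6528. Levels set side by side between genes are therefore given as reads per kilobase of the longest transcript on the FPKM scale, called the longest-transcript level below. A change within a gene is hardly touched by this choice, apart from the weight of the added 1 and the filter. With the longest transcript as length, 7 carriers were higher in Dox. SLC7A8 (0.880 in Dox, 0.234 in Cont) and SLC38A3 (0.360 in Dox, 0.0859 in Cont) were then below the filter.

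On that scale the 5 light chains together stood at 31.9, 32.8 and 34.0 in Dox libraries and 188.4, 188 and 170.5 in Cont libraries, and SLC3A2 at 27.4, 23.7 and 26.0 in Dox and 139.3, 152.3 and 120.8 in Cont. The light chain sum over SLC3A2 was 1.17, 1.38 and 1.31 in Dox libraries and 1.35, 1.24 and 1.41 in Cont libraries, so the ratio of light to heavy chain transcripts overlapped between the groups while both fell. The make-up of that sum differed. SLC7A5 was 50.4%, 51.7% and 54.0% of the light chains in Dox libraries and 93.7%, 93.9% and 93.2% in Cont libraries. SLC7A11 was 35.2%, 34.7% and 31.9% in Dox libraries and 0.616%, 0.616% and 1.08% in Cont libraries. In the Dox libraries the level of SLC7A11 was thus 0.590 to 0.699 of that of SLC7A5, against 0.00656 to 0.0116 in the Cont libraries.

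**Figure D2:**
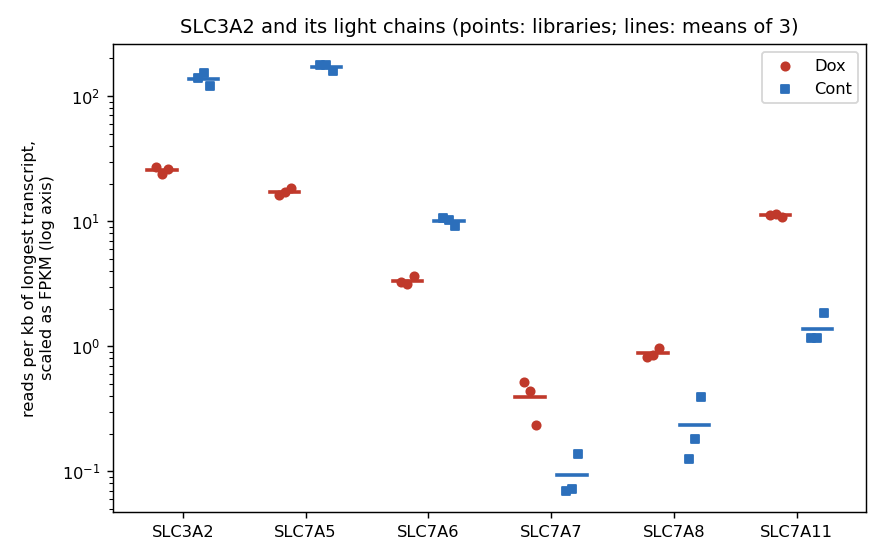
Longest-transcript level (log axis) of the heavy chain SLC3A2 and its 5 light chains, Dox in red left of Cont in blue; points are libraries and lines are means of 3. SLC3A2, SLC7A5 and SLC7A6 lie lower in Dox, SLC7A8 and SLC7A11 higher, and SLC7A7 was not tested.

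Cationic amino acids also enter through SLC7 carriers that need no heavy chain. SLC7A1 (chromosome 13, 29509414 to 29595688), the arginine and lysine carrier CAT1, had FPKM values of 3.57, 4.23 and 3.50 in Dox libraries and 16.7, 16.97 and 15.04 in Cont libraries. Every Dox library was below every Cont library, with a Cont over Dox fold of 4.31 and a log2 change of -1.86 (SE 0.09, adjusted p = 6.51e-08). SLC7A2, the related carrier CAT2, was below the filter in both groups, at 0.277 ± 0.07 FPKM in Dox and 0.404 ± 0.07 in Cont.

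All 3 SLC1 carriers with a row fell. SLC1A5 (chromosome 19, 46774883 to 46788594), the glutamine carrier ASCT2, had FPKM values of 13.2, 14.5 and 15.9 in Dox libraries and 71.0, 74.6 and 74.7 in Cont libraries. The 2 groups were far apart, with a Cont over Dox fold of 5.05 and a log2 change of -2.26 (SE 0.08, adjusted p = 6.55e-09). SLC1A4 (chromosome 2, 64988479 to 65023865), the alanine, serine and cysteine carrier ASCT1, had FPKM values of 27.8, 32.6 and 30.1 in Dox libraries and 74.9, 76.7 and 74.7 in Cont libraries, a log2 change of -1.30 (SE 0.07, adjusted p = 1.26e-07). SLC1A1, the glutamate and cysteine carrier EAAT3, averaged 2.01 ± 0.03 FPKM in Dox and 4.20 ± 0.36 in Cont (log2 change -0.78, adjusted p = 4.04e-05). The 3 genes thus fell to different depths, SLC1A5 the furthest.

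The SLC38 carriers of the plasma membrane, which take up glutamine, alanine and other small neutral amino acids with sodium, split. SLC38A1 (chromosome 12, 46183063 to 46269043), known as SNAT1, had FPKM values of 11.5, 11.2 and 13.7 in Dox libraries and 45.4, 47.5 and 50.9 in Cont libraries. It fell by 1.90 on the log2 scale (SE 0.09, adjusted p = 4.08e-08), with no overlap between the groups. Its neighbour SLC38A2, known as SNAT2, changed less, at 68.0, 66.6 and 70.1 FPKM in Dox libraries and 84.4, 86.0 and 87.8 in Cont libraries (log2 change -0.33, SE 0.06, adjusted p = 0.000572). That call does not survive every scaling: with values rescaled so that all genes of a library share 1 total (TPM) without mitochondrially encoded genes the change was -0.06 (adjusted p = 0.419), and with quantile normalization -0.11 (adjusted p = 0.13). The first of these scalings moved the median of all tested genes by 0.28, and relative to that median SLC38A2 stood at -0.27 under it and at -0.27 as reported. Under quantile normalization the median of all tested genes was -0.05, so there SLC38A2 stood closer to it.

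The remaining pair at the plasma membrane was low and higher in Dox. SLC38A3, the glutamine carrier SNAT3 known from hepatocytes, had FPKM values of 1.91, 1.99 and 1.90 in Dox libraries and 0.517, 0.178 and 0.905 in Cont libraries (log2 change 0.96, SE 0.17, adjusted p = 0.000405). These values rest on 120 reads in the 3 Dox libraries and 25 in the 3 Cont libraries. SLC38A3 passed the filter only through the Dox libraries. SLC38A4, known as SNAT4, averaged 1.98 ± 0.28 FPKM in Dox and 1.28 ± 0.13 in Cont (log2 change 0.38, adjusted p = 0.0116). Its call was lost with quantile normalization (0.06, adjusted p = 0.676), and also without Cont replicate 1 (0.34, adjusted p = 0.053).

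Of the SLC38 genes whose function is less settled, both that were tested rose. SLC38A6 (chromosome 14, 60981245 to 61083733) had FPKM values of 19.3, 18.1 and 19.97 in Dox libraries and 5.94, 7.92 and 7.23 in Cont libraries. Each Dox library was more than 2 times the highest Cont library, and the log2 change was 1.33 (SE 0.10, adjusted p = 1.20e-06). An overlap of 245 exon bases with TRMT5 on the opposite strand could hold reads of either gene. SLC38A10, already high without doxycycline, averaged 40.2 ± 2.92 FPKM in Dox and 29.9 ± 1.91 in Cont (log2 change 0.41, adjusted p = 0.000869). SLC38A11 was below the filter, with 243, 124 and 102 reads in Dox libraries and 10, 6 and 0 in Cont libraries. With the 3 libraries summed, that was 469 reads in Dox and 16 in Cont.

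**Figure D3:**
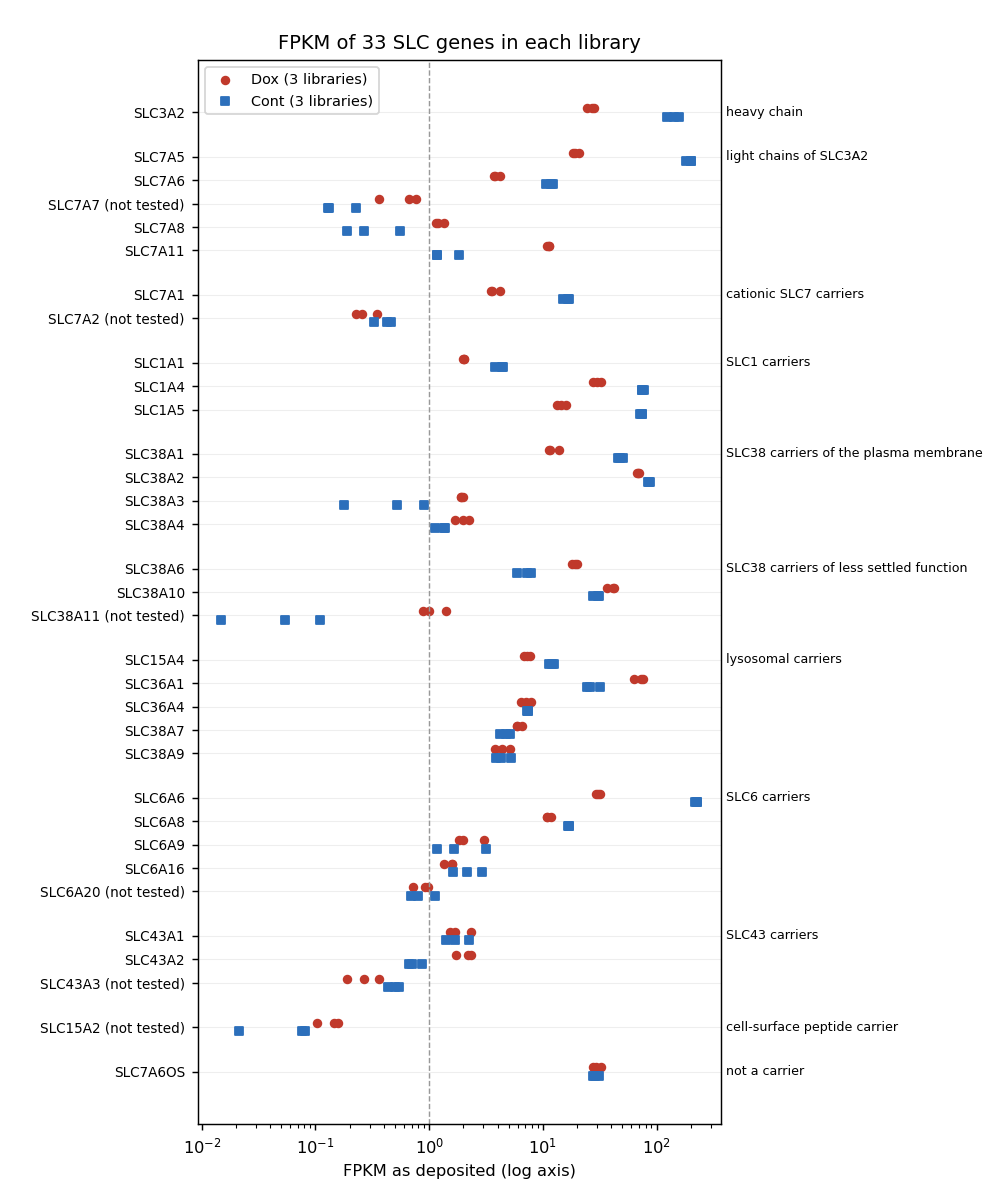
FPKM as deposited (log axis; dashed line at the filter of 1) of all 33 genes in each library, Dox as red circles above Cont as blue squares, grouped by role. SLC7A5 and SLC6A6 are separated by the widest gaps among genes lower in Dox and SLC7A11 among tested genes higher in Dox. FPKM here are compared within a gene only, and a library with 0 reads (Cont replicate 3 of SLC38A11) is drawn at the deposited offset.

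Carriers of the lysosome showed both directions. SLC36A1 (chromosome 5, 151344596 to 151556085), the proton-coupled carrier PAT1 that releases small neutral amino acids from lysosomes, had FPKM values of 72.6, 75.9 and 63.7 in Dox libraries and 26.0, 24.2 and 31.9 in Cont libraries. All Dox libraries lay above all Cont libraries, with a fold of 2.58 and a log2 change of 1.34 (SE 0.11, adjusted p = 1.49e-06). SLC38A7, known for exporting glutamine and asparagine from lysosomes, averaged 6.13 ± 0.36 FPKM in Dox and 4.69 ± 0.46 in Cont (log2 change 0.33, adjusted p = 0.0107). Without Cont replicate 2 its change was 0.26 (adjusted p = 0.0535), so 1 library decided its call.

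SLC15A4, which carries histidine and peptides out of endosomes and lysosomes, fell. It averaged 7.23 ± 0.43 FPKM in Dox and 12.0 ± 0.65 in Cont (log2 change -0.66, adjusted p = 4.78e-05). SLC38A9, the lysosomal arginine sensor of mTORC1, did not pass the test, at 4.39 ± 0.67 FPKM in Dox and 4.46 ± 0.72 in Cont, with a 95% interval of the log2 change from -0.31 to 0.27. SLC36A4 did not pass either, with an interval from -0.25 to 0.16. Of the 5 lysosomal carriers, 2 were therefore higher, 1 lower and 2 not past the threshold. Their summed longest-transcript level was 30.6, 31.7 and 33.4 in Dox libraries and 30.8, 30.5 and 31.97 in Cont libraries, which overlap. In FPKM as deposited, where SLC36A1 is divided by a length of 587 bases and not the 5781 of its longest transcript, the sum was 95.9, 99.97 and 90.8 in Dox libraries and 54.3, 52.4 and 60.8 in Cont libraries, which do not overlap.

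SLC6 carriers take up substrates with sodium and chloride. SLC6A6 (chromosome 3, 14402576 to 14489349), the taurine carrier, had FPKM values of 30.8, 32.03 and 29.4 in Dox libraries and 224.5, 218.7 and 228.4 in Cont libraries. The libraries of each group were tight and the groups far apart, with a Cont over Dox fold of 7.29 and a log2 change of -2.83 (SE 0.06, adjusted p = 9.04e-10). On the longest-transcript scale it stood at 2.65 ± 0.11 in Dox and 19.4 ± 0.42 in Cont, and its change with that length was -2.48. SLC6A8, the creatine carrier, averaged 11.1 ± 0.49 FPKM in Dox and 16.9 ± 0.19 in Cont (log2 change -0.56, adjusted p = 5.40e-05).

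The glycine carrier SLC6A9 did not pass, at 2.00, 3.02 and 1.84 FPKM in Dox libraries and 1.17, 1.66 and 3.16 in Cont libraries, and its groups overlapped. SLC6A16, whose substrate is unknown, was just short of the threshold with FPKM values of 1.34, 1.58 and 1.60 in Dox libraries and 2.14, 1.63 and 2.94 in Cont libraries (log2 change -0.35, adjusted p = 0.0543). It passed under 4 of the other settings. SLC6A20, a carrier of proline and related imino acids, was below the filter at 0.876 ± 0.14 FPKM in Dox and 0.874 ± 0.23 in Cont.

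Of the SLC43 carriers, which let branched-chain amino acids and phenylalanine pass without sodium, SLC43A2 (LAT4) rose. It had FPKM values of 2.19, 2.31 and 1.72 in Dox libraries and 0.669, 0.702 and 0.872 in Cont libraries, with no overlap (log2 change 0.81, SE 0.12, adjusted p = 0.00014). SLC43A2 passed the filter only through the Dox libraries. SLC43A1 (LAT3) did not pass, at 1.84 ± 0.41 FPKM in Dox and 1.77 ± 0.42 in Cont. SLC43A3 was below the filter with 20, 20 and 9 reads in Dox libraries and 24, 30 and 31 in Cont libraries. The peptide carrier of the cell surface, SLC15A2, was below the filter too, with 78 reads over the 3 Dox libraries and 28 over the 3 Cont libraries.

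Summed over the 32 carriers, the longest-transcript level was 272.4, 270.1 and 277.4 in Dox libraries and 669, 690.6 and 646.2 in Cont libraries. The order of the carriers differed between the groups. In Dox the highest was SLC38A2 at 66.9 ± 1.71, then SLC38A10 at 42.0 ± 3.05, SLC3A2 at 25.7 ± 1.84, SLC7A5 at 17.1 ± 1.15 and SLC1A5 at 14.5 ± 1.37. The next in Dox, SLC38A1, SLC6A8, SLC38A6 and SLC7A11, lay between 11.2 and 12.2 and their libraries overlapped. In Cont the highest was SLC7A5 at 170.6 ± 10.1, then SLC3A2 at 137.5 ± 15.8, SLC38A2 at 84.4 ± 1.63, SLC1A5 at 73.4 ± 2.09 and SLC38A1 at 48.1 ± 2.79. The top places depend on the length used. In FPKM as deposited the highest was SLC36A1 in Dox (70.7) and SLC6A6 in Cont (223.9).

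As a share of the sum, SLC7A5 was 5.90%, 6.28% and 6.61% in Dox libraries and 26.4%, 25.6% and 24.6% in Cont libraries. SLC38A2 was 24.5%, 24.2% and 24.8% in Dox libraries and 12.4%, 12.2% and 13.3% in Cont libraries, a larger share of a smaller sum. SLC38A10 likewise was 16.3%, 15.9% and 13.91% in Dox libraries and 4.78%, 4.75% and 4.49% in Cont libraries. The lysosomal carriers together were 11.2%, 11.7% and 12.1% in Dox libraries and 4.60%, 4.41% and 4.95% in Cont libraries, at levels that overlap on this scale. Shares of a sum move with every other member of it, so they describe the make-up and not a change of each gene.

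**Figure D4:**
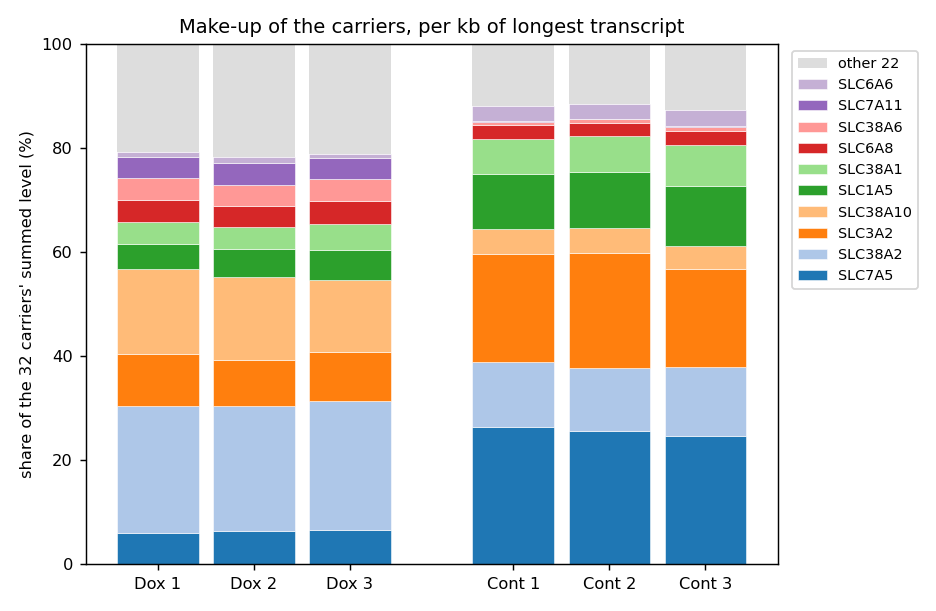
Share of the summed longest-transcript level of the 32 carriers (vertical axis, %) taken by the 10 carriers with the largest shares and by the other 22, in each Dox library (left) and each Cont library (right). SLC7A5 and SLC3A2 are the largest blocks of the Cont bars, and SLC38A2 and SLC38A10 of the Dox bars.

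The promoters of the carriers were searched because several with known ATF4 responses fell together. The RefSeq table (GRCh38.p14) gave 47 promoters for 28 of the 33 genes, each 300 bases, from 250 before to 50 after a start, and positions below count from +1 at the start. The ATF4 and C/EBP composite element was searched as TGATGNAA on both strands. It was in promoters of 5 of the 28 genes (SLC1A5, SLC1A4, SLC38A1, SLC7A1 and SLC3A2), and all of these were lower in Dox. It was in 3.62% of all 35116 promoters, and in a promoter of 4.46% of all genes in the table. Of tested genes that hold it, 40.2% were higher and 42.2% lower. Among all tested genes with a promoter in the table, 37.2% were higher and 43.4% lower. A role of the element in these falls was not tested. The windows are shown 5′ to 3′ on the strand of the gene, with the match in capitals. SLC7A1 has 1 promoter in the table, SLC1A4 and SLC38A1 have 2, and SLC1A5 and SLC3A2 have 3, of which only the window with the match is shown. The windows of SLC1A5, SLC1A4, SLC38A1 and SLC3A2 lie inside the gene, at a start downstream of its outermost one. That of SLC7A1 is at the outermost start. In SLC1A5 the match is at -97. The match starts at -7 in SLC1A4, -4 in SLC38A1, 8 in SLC7A1 and 38 in SLC3A2, and in SLC1A4 and SLC3A2 it is on the opposite strand.
SLC1A5, chr19:46784765-46785064, minus strand: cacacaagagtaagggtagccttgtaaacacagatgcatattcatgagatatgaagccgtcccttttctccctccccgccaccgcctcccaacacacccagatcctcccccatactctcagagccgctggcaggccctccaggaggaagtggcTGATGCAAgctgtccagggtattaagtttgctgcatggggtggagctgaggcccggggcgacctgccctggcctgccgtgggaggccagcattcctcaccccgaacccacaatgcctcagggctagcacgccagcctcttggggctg
SLC1A4, chr2:64989149-64989448, plus strand: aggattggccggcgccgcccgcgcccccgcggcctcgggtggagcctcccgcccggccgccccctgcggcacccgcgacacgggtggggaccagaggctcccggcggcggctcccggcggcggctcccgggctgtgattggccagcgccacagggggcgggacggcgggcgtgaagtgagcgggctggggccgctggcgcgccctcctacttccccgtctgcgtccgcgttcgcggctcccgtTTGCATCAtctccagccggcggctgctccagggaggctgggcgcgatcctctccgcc
SLC38A1, chr12:46266467-46266766, minus strand: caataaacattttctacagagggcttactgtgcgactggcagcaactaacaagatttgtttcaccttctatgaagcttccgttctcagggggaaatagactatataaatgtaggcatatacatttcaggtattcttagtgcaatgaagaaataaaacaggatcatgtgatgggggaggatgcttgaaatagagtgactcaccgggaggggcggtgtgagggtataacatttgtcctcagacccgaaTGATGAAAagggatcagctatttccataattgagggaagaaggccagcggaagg
SLC7A1, chr13:29595639-29595938, minus strand: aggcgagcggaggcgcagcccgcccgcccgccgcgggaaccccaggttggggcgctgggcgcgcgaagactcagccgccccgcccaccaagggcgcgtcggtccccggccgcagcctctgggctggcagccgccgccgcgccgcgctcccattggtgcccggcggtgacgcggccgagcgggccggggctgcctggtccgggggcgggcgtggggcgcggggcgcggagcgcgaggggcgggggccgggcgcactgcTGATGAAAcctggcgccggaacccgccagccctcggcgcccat
SLC3A2, chr11:62881449-62881748, plus strand: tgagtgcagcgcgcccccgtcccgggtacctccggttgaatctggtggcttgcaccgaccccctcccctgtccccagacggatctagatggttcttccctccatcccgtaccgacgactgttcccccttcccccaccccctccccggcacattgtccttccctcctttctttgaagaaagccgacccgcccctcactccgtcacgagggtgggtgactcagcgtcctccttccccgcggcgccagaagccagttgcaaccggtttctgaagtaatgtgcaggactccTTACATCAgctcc

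The E-box CACGTG, which reads the same on both strands and is bound by several factor families including that of the lysosomal regulator TFEB, was in promoters of 8 of the 28 genes, in 7.26% of all promoters and in a promoter of 8.77% of all genes. Those 8 were 3 higher in Dox (SLC36A1, SLC7A8 and SLC38A7), 2 lower (SLC7A5 and SLC1A5), 2 not past the threshold and 1 not tested. Of tested genes that hold it, 34.0% were higher and 48.4% lower, beside 37.2% and 43.4% of all tested genes with a promoter in the table. SLC36A1, the lysosomal carrier with the largest rise, held 2 copies in 1 of its 2 windows, starting at -43 and -8. That window lies inside the gene, far downstream of its outermost start, and is shown with the matches in capitals.
SLC36A1, chr5:151447353-151447652, plus strand: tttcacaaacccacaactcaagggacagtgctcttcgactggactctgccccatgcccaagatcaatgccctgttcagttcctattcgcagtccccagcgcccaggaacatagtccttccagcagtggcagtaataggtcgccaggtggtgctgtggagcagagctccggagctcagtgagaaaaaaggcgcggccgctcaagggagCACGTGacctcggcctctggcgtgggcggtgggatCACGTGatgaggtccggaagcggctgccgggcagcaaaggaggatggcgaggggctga

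Letters known for FOXO binding were searched on both strands too. GTAAACA was in promoters of SLC43A1, which did not pass the test, and of SLC1A5, in the window shown above from -227, where it stands in lower case. These are 2 of the 28 genes, beside 3.42% of all promoters and 4.19% of all genes. Of the tested genes that hold it, 48.9% were higher in Dox and 32.5% lower. Among all tested genes with a promoter in the table, 37.2% were higher and 43.4% lower. CAAAACA, the core of the insulin response sequence, was in promoters of SLC6A9, SLC43A1, SLC38A4 and SLC7A7, which are 4 of the 28 genes, beside 4.92% of all promoters and 6.05% of all genes. Tested genes that hold CAAAACA were higher in 47.6% of cases and lower in 35.2%. The antioxidant response core TGACNNNGC was in promoters of 7 of the 28 genes (SLC3A2, SLC15A4, SLC7A1, SLC7A7, SLC7A6, SLC7A5 and SLC1A5), in 13.3% of all promoters and in a promoter of 16.1% of all genes. Tested genes that hold this core were higher in 36.8% of cases and lower in 44.1%. A role of these motifs was not tested. No match of 1 of these motifs overlapped a match of another in these promoters.

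Genes of the amino acid response, the pathway in which the kinase GCN2 and the factor ATF4 answer amino acid shortage, were mostly lower. Of 23 tested, 14 were lower, 5 higher and 4 not past the threshold (median log2 change -0.74, beside -0.06 for all tested genes). Of all tested genes 42.8% were lower and 37.6% higher. ATF4, known to drive SLC7A5, SLC3A2, SLC7A11 and other carriers, had FPKM values of 56.3, 56.0 and 59.7 in Dox libraries and 153.7, 165.9 and 148.6 in Cont libraries (log2 change -1.43, adjusted p = 4.04e-08). The largest falls were in XPOT, a tRNA exporter (-1.78), and SHMT2, a mitochondrial serine hydroxymethyltransferase (-1.70). The largest rises were in NUPR1, a stress-induced nuclear protein (2.20), and PSAT1, an enzyme of serine synthesis (1.41). ASNS, the asparagine synthetase that is a standard marker of this response, was below the filter.

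Among 13 tested genes of cystine use and glutathione, 4 were higher, 6 lower and 3 not past the threshold (median -0.22). Shares over all tested genes were 37.6% higher and 42.8% lower, so these counts lie near them. GGT5, among the lower, entered the test only through the Cont libraries. GCLC, the catalytic subunit of the first enzyme of glutathione synthesis, rose as SLC7A11 did, at 35.9, 35.4 and 34.8 FPKM in Dox libraries and 8.29, 8.88 and 7.42 in Cont libraries (log2 change 1.99, adjusted p = 1.51e-08). Its modifier subunit GCLM fell, at 7.16, 8.22 and 7.68 FPKM in Dox libraries and 28.1, 28.1 and 24.02 in Cont libraries (log2 change -1.67, adjusted p = 9.20e-08). CTH, which makes cysteine from cystathionine, was also higher (1.36), and TXNRD1, a thioredoxin reductase, lower (-2.59).

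Enzymes of glutamine, glutamate and branched-chain amino acids showed 5 higher, 7 lower and 4 not past the threshold of 16 tested (median -0.07). Over all tested genes 37.6% were higher and 42.8% lower, close to these counts. GLUD1, glutamate dehydrogenase, rose by 1.74 on the log2 scale and GPT, an alanine aminotransferase, by 1.63. GPT was at 0.185, 0.229 and 0.339 FPKM in Cont libraries, so it entered the test only through the Dox libraries. PYCR1, the last enzyme of proline synthesis, had a change of -1.95 and ALDH18A1, the first, of -0.99. GLUL, which makes glutamine, stood at 49.4 FPKM in Dox and 27.4 in Cont (log2 change 0.83, adjusted p = 3.57e-06). GLUL was chosen after its values were seen.

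Of 8 tested enzymes of arginine, ornithine and creatine, 1 was higher, 3 lower and 4 not past the threshold. For this list and the next, the shares over all tested genes were 37.6% higher and 42.8% lower. GATM, the first enzyme of creatine synthesis, was higher (1.08) and CKB, brain-type creatine kinase, lower (-1.05), beside the creatine carrier SLC6A8 (-0.56). Of 19 tested peptidases and lysosomal sensors, 11 were higher, 7 lower and 1 not past the threshold (median 0.29). ANPEP and CASTOR2, among the higher, entered the test only through the Dox libraries. PEPD, which splits proline dipeptides, stood at 174.8 FPKM in Dox and 48.8 in Cont (log2 change 1.82), and LAMTOR3, a subunit of the lysosomal scaffold of mTORC1, rose by 1.18. The leucine aminopeptidase LAP3 (-1.08) and LAMTOR1, another scaffold subunit (-0.54), fell.

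Of the 21 called carriers, 18 kept their call and direction under the 21 other settings that gave a value for them. Leaving out replicate 3 of Dox left 6 carriers higher and 12 lower, and leaving out replicate 3 of Cont left 9 higher and 12 lower. The count of carriers higher in Dox was 6 without any 1 of the Dox libraries, because SLC38A3, SLC43A2 and SLC7A8 pass the filter only through all 3 of them, so their entry into the test depended on the group in which they are high.

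**Figure D5:**
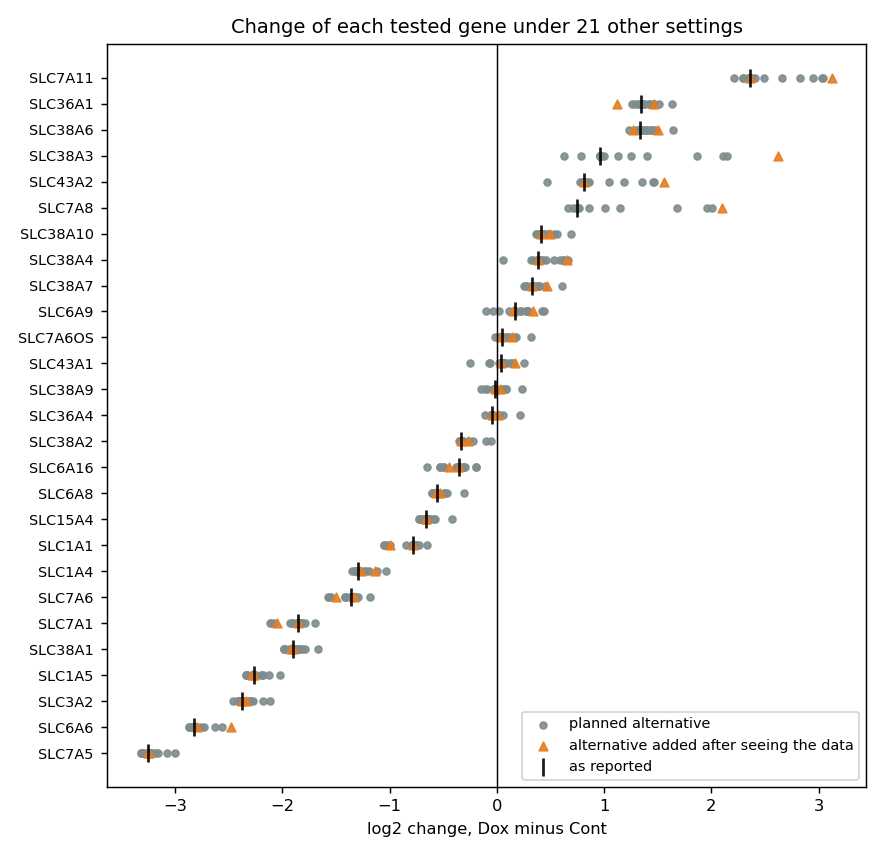
Log2 change (Dox minus Cont, horizontal axis) of each tested gene as reported (black bar) and under 21 other settings (grey circles planned, orange triangles added after the data were seen), genes ordered by the reported change. The spread is widest for the low genes SLC38A3 and SLC7A8, where a smaller added value raises the change, and the 8 genes with falls of at least 1 stay below -1 throughout.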

How the data were processed

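RNA was profiled in 6 libraries of poly(A) RNA, 3 Dox and 3 Cont. The authors deposited 1 table of log2 FPKM values, from -8.59 to 13.9, with an offset added before the logarithm; FastQC 0.11.7 and the build GRCh38 are named in the submitters' processing notes, and the aligner, the counter and any filter are not given in the sources used here. The planned test had assumed linear FPKM, so the deposited values were first taken out of log2. Reads were recovered as the whole numbers that fit all 6 libraries within 0.002 reads with the offset, which averaged 2.0 reads; all 13117 genes had exactly 1 solution. The libraries hold 29.2 to 46.0 M such reads, which limits genes with few reads. The column of Cont replicate 1 was matched by title, since its description names that of replicate 2.

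The 11526 genes that reached 1 FPKM in 3 or more libraries entered a fit of log2(FPKM + 1) by limma (version 3.58.1, R 4.3.3), moderated with a trend on mean level. P-values are two-sided, adjusted by Benjamini-Hochberg over all these genes (threshold 0.05). The fit was also run on simulated data in which only a small part of the genes, none of them low, was changed. That run does not speak for data such as these, where most genes were called, or for low genes. Coordinates and promoters are from RefSeq GRCh38.p14, transcript lengths from GENCODE 29. Any carrier could be named, with values per library for SLC3A2, the SLC7 genes and members with a log2 change of at least 1. Other lists give up to 2 rises and 2 falls, and further genes that bear on a named one. The members and lists were chosen with earlier results of these data known. Reads shared with the pseudogenes SLC6A6P1, SLC7A5P1 and SLC7A5P2 could not be separated, nor those in exon bases that SLC1A5 (780), SLC38A10 (610), SLC6A9 (404), SLC7A5 (271) and SLC6A6 (239) share with genes of the opposite strand, or SLC43A3 with AP000781.2 (1349).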

Additional observations from a re-analysis of the deposited data

How the results depend on the processing

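Of the 21 called carriers, 18 kept their direction and their call in each of the 21 other settings that gave a value (19 planned, 2 added after seeing the data: limma's voom on the recovered reads, and FPKM per longest transcript). The exceptions were SLC38A2, SLC38A4 and SLC38A7. SLC38A4 and SLC38A7 also missed a threshold of 0.01. The cause was not tested. SLC38A3, SLC43A2 and SLC7A8 are among the 18 but gave a value in only 16, 17 and 15 settings. They gave none without any 1 Dox library, since they pass the filter only through all 3 of these. SLC38A3 and SLC7A8 also gave none per longest transcript, where they lie below the filter. With a filter at FPKM 5, 5 carriers were higher, because fewer genes were tested. Leaving out 1 library at a time gave 6 to 9 higher, 12 to 13 lower and 8319 to 9118 of all tested genes called, beside 9265 as reported. With no filter 11 were higher and 13 lower. The genes that changed sign were all short of the threshold: SLC6A9 (-0.11 with quantile normalization), SLC43A1 (-0.25 with quantile normalization), SLC36A4 (0.061 in TPM, 0.21 in TPM without mitochondrially encoded genes, 0.021 with median-of-ratios scaling, 0.0077 with voom) and SLC38A9 (0.084, 0.23, 0.044 and 0.028 in the same settings). Leaving out 1 library at a time also turned these genes and SLC7A6OS: SLC6A9 ran from -0.034 to 0.44, SLC43A1 from -0.076 to 0.15, SLC36A4 from -0.11 to 0.025, SLC38A9 from -0.11 to 0.087 and SLC7A6OS from -0.015 to 0.098. Over all tested genes the median was -0.06 as reported, 0.06 in TPM and 0.22 in TPM without mitochondrially encoded genes. Same-numbered libraries did not deviate together (correlations 0.04, -0.0048 and 0.08), and with the replicate number as a block 9 carriers were higher, 12 lower and 9272 genes called in all, so the pairing changed no call of a carrier. Depth limits SLC38A3, SLC7A7, SLC15A2, SLC43A3 and SLC38A11, with under 30 reads over a group or, for SLC43A3, under 100 in both.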

Other observations

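Proteins that partner carriers or set their turnover included several large changes. Of 16 tested, 6 were higher and 10 lower in Dox (limma, adjusted p under 0.05), beside 37.6% higher and 42.8% lower of all tested genes. MARCHF1, among the higher, entered the test only through the Dox libraries. CLTRN, or collectrin, a known membrane partner of SLC6 amino acid carriers, had FPKM values of 33.3, 33.1 and 39.7 in Dox libraries and 2.57, 2.87 and 2.73 in Cont libraries (log2 change 3.28). CD44, the surface glycoprotein whose variant forms are known to hold SLC7A11 at the membrane, had FPKM values of 10.5, 10.3 and 10.8 in Dox libraries and 224, 227.6 and 203.4 in Cont libraries (log2 change -4.25), opposite in direction to SLC7A11. The kinases SGK3 (2.89) and SGK2 (-4.15), of a family known to raise carriers at the surface, changed in opposite directions. MARCHF8, a ubiquitin ligase known to act on SLC3A2, was chosen after its values were seen. It stood at 43.8 FPKM in Dox and 10.7 in Cont (log2 change 1.94, adjusted p = 5.46e-09).

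Amino acid carriers outside the 8 families were measured too. Of 13 tested mitochondrial amino acid carriers, 3 were higher and 8 lower (median log2 change -0.65). For this list and the next, 37.6% of all tested genes were higher and 42.8% lower. SLC25A15, the ornithine carrier, stood at 3.82 FPKM in Dox and 14.2 in Cont (-1.66), and SLC25A22, a glutamate carrier, at 7.69 in Dox and 19.1 in Cont (-1.22). SLC25A40, known for bringing glutathione into mitochondria (0.93), and SLC25A12, an aspartate and glutamate carrier (0.80), were higher. Their close relatives were lower and were named after their values were seen. SLC25A39, beside SLC25A40, stood at 93.1 FPKM in Dox and 162.7 in Cont (-0.80). SLC25A13, beside SLC25A12, stood at 14.6 in Dox and 34.5 in Cont (-1.19). Of 7 tested carriers of the plasma membrane, lysosomes and vesicles, 1 was higher (SLC17A7, a vesicular glutamate carrier, 0.92). Lower were 2, SLC22A4 (-1.08) and SLC22A5 (-0.86), carriers of ergothioneine and carnitine. SLC22A4 was at 0.984, 0.747 and 0.353 FPKM in Dox libraries, so it entered the test only through the Cont libraries. The 4 that did not pass included CTNS, which exports cystine from lysosomes, at 28.3 FPKM in Dox and 25.2 in Cont.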
